A study of Mus musculus with 6 samples.

Results

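The 7 cyclin-dependent kinase (CDK) inhibitor genes of the mouse, *Cdkn2a*, *Cdkn2b*, *Cdkn2c* and *Cdkn2d* of the INK4 family and *Cdkn1a*, *Cdkn1b* and *Cdkn1c* of the CIP/KIP family, were followed in satellite cells (SCs), the stem cells of skeletal muscle, with and without Slug. They were chosen by name, each was read by the 1 probe set that carries its symbol alone, and they are 7 of 22180 genes measured. The samples were SCs sorted by flow cytometry (CD45-, Sca1-, CD11b-, CD31-, CD34+, integrin-α7+) from uninjured hindlimb muscle of adult male C57BL6 mice, 3 from *Slug*+/+ and 3 from *Slug*-/- animals. *Slug*-/- animals lack the zinc-finger repressor Slug, the product of *Snai2*, in all tissues and not only in SCs. RNA was taken directly after sorting, without culture or treatment in either genotype, and each sample was hybridised to 1 whole-transcript Affymetrix array. The labels call the samples biological replicates without naming the mice, so p-values measure only the spread between these samples, which may be technical.

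CDK inhibitors hold cells out of division. INK4 proteins bind CDK4 and CDK6 and keep them from D-type cyclins, whereas CIP/KIP proteins bind complexes of CDK2 and CDK1 with cyclins E, A and B. Both arms leave the retinoblastoma protein unphosphorylated and the E2F factors held, a state found in the quiescent SCs of resting muscle and, made permanent, in senescent cells. The study asked whether Slug represses p16Ink4a, a product of *Cdkn2a*, in SCs.

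*Snai2* stood on the arrays as labelled, at log2 values of 6.25, 6.66 and 6.53 in *Slug*+/+ and 5.15, 5.10 and 4.59 in *Slug*-/- SCs (difference -1.53, SE 0.22, adjusted p = 0.435 from limma), but the position of its probes relative to the deleted stretch is unknown here. Genes of the positive sort markers gave means of 8.42 and 8.47 (*Cd34*) and of 7.90 and 8.26 (*Itga7*) in *Slug*+/+ and *Slug*-/- SCs, and *Pax7*, the transcription factor that defines SCs, was 9.37 and 9.18. The blood genes *Ptprc* (2.05 and 1.87) and *Itgam* (1.96 and 1.78), which encode CD45 and CD11b, lay under the background level, and the endothelial gene *Pecam1* (3.59 and 3.74), which encodes CD31, lay above it. The files hold no detection call, so the 95th percentile of 1088 olfactory receptor genes, which most cells do not express, served as a guide to background. It was 2.95 to 3.23 over the 6 arrays, and the median of all probe sets was 2.87 to 2.96. All values are on the log2 scale, on which a difference of 1 is a fold of 2, and differences are *Slug*-/- minus *Slug*+/+. The arrays measure bulk samples, in which fewer cells that express a gene and less RNA per cell cannot be told apart.

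Slug is a zinc-finger factor that binds E-boxes of the form CAGGTG, and the starts of the inhibitor genes were therefore read first. RefSeq promoter windows of 300 bases (250 before and 50 after a start site, build GRCm38.p6) matched 6 of the 7 genes, in 9 windows, all but *Cdkn1c*. *Cdkn2a* has a pair of starts on the minus strand of chromosome 4, the upstream one for the transcript of p19Arf and the downstream one for that of p16Ink4a. Both are shown in full because the array values of *Cdkn2a* below cannot be assigned to either start, together with the downstream window of *Cdkn1a*, the only one of the 9 with the Slug-type word. In capitals are words of the form CANNTG, the general E-box, which reads the same on both strands and includes CAGGTG and its reverse complement CACCTG.
Cdkn2a, p19Arf start, chr4:89294570-89294869, minus strand: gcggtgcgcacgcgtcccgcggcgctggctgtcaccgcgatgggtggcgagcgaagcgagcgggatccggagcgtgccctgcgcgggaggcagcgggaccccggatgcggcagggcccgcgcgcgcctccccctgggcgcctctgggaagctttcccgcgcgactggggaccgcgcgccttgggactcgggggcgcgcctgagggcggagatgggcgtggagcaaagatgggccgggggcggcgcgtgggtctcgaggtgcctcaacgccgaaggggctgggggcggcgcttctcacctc
Cdkn2a, p16Ink4a start, chr4:89282143-89282442, minus strand: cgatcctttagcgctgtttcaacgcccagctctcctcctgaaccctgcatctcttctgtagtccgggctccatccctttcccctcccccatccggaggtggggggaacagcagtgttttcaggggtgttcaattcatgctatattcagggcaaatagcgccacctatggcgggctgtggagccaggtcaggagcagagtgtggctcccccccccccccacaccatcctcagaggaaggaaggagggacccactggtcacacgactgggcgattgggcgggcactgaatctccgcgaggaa
Cdkn1a, downstream start, chr17:29093519-29093818, plus strand: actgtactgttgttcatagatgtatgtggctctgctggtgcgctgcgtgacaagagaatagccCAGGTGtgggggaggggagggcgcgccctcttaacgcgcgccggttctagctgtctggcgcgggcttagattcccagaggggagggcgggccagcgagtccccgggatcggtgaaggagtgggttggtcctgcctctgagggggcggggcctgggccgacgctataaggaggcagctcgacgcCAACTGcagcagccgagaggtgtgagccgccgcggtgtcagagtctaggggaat
Neither *Cdkn2a* window held a CANNTG word. The p19Arf window had 77.0% G and C and 45 CpG dinucleotides, and the p16Ink4a window 60.3% and 12, against medians of 52.7% and 7 over all 32851 windows of this length. In the *Cdkn1a* window, CAGGTG began at base 64 and a second word, CAACTG, at base 247. CAGGTG or CACCTG was in 1 of 9 inhibitor windows and in 20.2% of all windows, and CANNTG was in 4 of 9 and in 72.3% of all windows. The other words were CAAGTG at base 214 of the *Cdkn2b* window, CACGTG at base 285 of the downstream *Cdkn2c* window and CAGCTG at base 288 of the upstream *Cdkn1a* window. These are matches of letters in windows of fixed length and not measured binding sites, and E-boxes outside the windows were not searched.

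*Cdkn2a* did not differ between the genotypes beyond the spread of the arrays. The gene encodes p16Ink4a and, in another reading frame, p19Arf, which binds Mdm2 and so releases p53. Its single probe set could not be assigned to either transcript here, so its value stands for the gene and not for p16Ink4a. It was 4.18, 3.54 and 3.76 in *Slug*+/+ SCs and 3.89, 3.69 and 3.50 in *Slug*-/- SCs. The highest array and the second lowest were both *Slug*+/+, the lowest was *Slug*-/-, and the genotypes overlapped. The means were 3.83 ± 0.33 (SD, n = 3) and 3.69 ± 0.20 (SD, n = 3). The difference was -0.14 (SE 0.22, 95% interval -0.65 to 0.37, adjusted p = 0.960 from limma, exact two-sided permutation p = 0.6), so the interval spans folds of 0.636 to 1.30. Every array lay above its background level, but by only 0.33 to 0.95. Without *Slug*+/+ replicate 1, the highest array, the difference was 0.038.

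*Cdkn2b*, which lies beside *Cdkn2a* and encodes p15Ink4b, an inhibitor that TGF-β is known to induce, was 4.54, 4.77 and 4.48 in *Slug*+/+ and 4.80, 5.29 and 4.68 in *Slug*-/- SCs. *Slug*-/- replicate 2 was the highest, and *Slug*-/- replicate 3 lay below *Slug*+/+ replicate 2. The means were 4.60 ± 0.15 (SD, n = 3) and 4.92 ± 0.32 (SD, n = 3), a difference of 0.32 (SE 0.21, 95% interval -0.18 to 0.82, adjusted p = 0.909 from limma, exact two-sided permutation p = 0.2). Without *Slug*-/- replicate 2 the difference was 0.14. The other measured genes beside this pair showed no change past the thresholds. *Mtap*, which salvages methionine, gave a difference of -0.31. *Elavl2*, a neuronal RNA-binding protein, gave -0.17 with 2 *Slug*+/+ and 3 *Slug*-/- arrays under background. *Dmrta1*, a transcription factor gene, gave 0.05 with all 6 arrays under background.

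The remaining INK4 genes also overlapped. *Cdkn2c*, which encodes p18Ink4c, was 3.66, 3.75 and 3.45 in *Slug*+/+ and 3.80, 3.23 and 3.94 in *Slug*-/- SCs, a difference of 0.04 (SE 0.23, 95% interval -0.49 to 0.57, adjusted p = 0.990 from limma, exact two-sided permutation p = 0.9). The *Slug*-/- arrays held both its highest and its lowest value, and the lowest was 0.04 above background. *Cdkn2d*, which encodes p19Ink4d, was 6.12, 6.22 and 5.95 in *Slug*+/+ and 5.35, 6.49 and 5.89 in *Slug*-/- SCs. Again the extremes were *Slug*-/- arrays, with an SD of 0.57 against 0.14 in *Slug*+/+ SCs (n = 3 each). The difference was -0.19 (SE 0.29, 95% interval -0.87 to 0.48, adjusted p = 0.958 from limma, exact two-sided permutation p = 0.7), and it was 0.088 without *Slug*-/- replicate 1. Leaving out single arrays also turned the sign of *Cdkn2c*, down to -0.10.

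**Figure D1:**
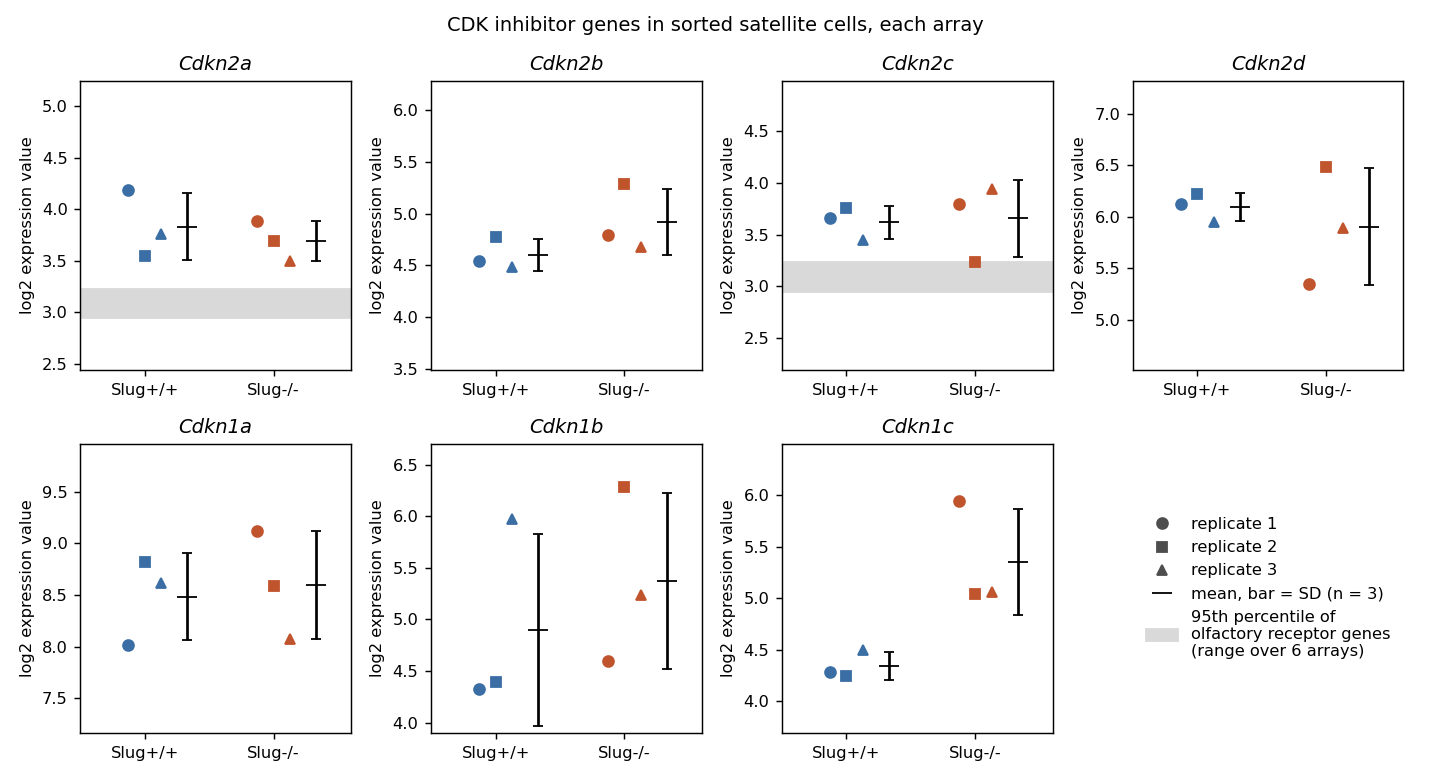
Log2 expression value of each inhibitor gene on each of the 6 arrays (marker shape, replicate number; bars, mean and SD, n = 3; grey band, 95th percentile of olfactory receptor genes over the arrays), each panel with its own axis of equal span. *Cdkn1c* is the panel in which the genotypes do not overlap (4.25 to 4.50 in *Slug*+/+, 5.05 to 5.95 in *Slug*-/- SCs).

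*Cdkn1c* was the inhibitor gene that stood apart. It encodes p57Kip2, is expressed from the maternal allele, and is known to be raised when myoblasts leave the cell cycle. Its value was 4.29, 4.25 and 4.50 in *Slug*+/+ SCs and 5.95, 5.05 and 5.06 in *Slug*-/- SCs. Every *Slug*-/- array was above every *Slug*+/+ array, as for 5.24% of all genes, with *Slug*-/- replicate 1 the farthest, and all 6 arrays were at least 1.03 above background. The means were 4.34 ± 0.13 (SD, n = 3) and 5.35 ± 0.52 (SD, n = 3). The difference was 1.01 (SE 0.27, 95% interval 0.38 to 1.64), a fold of 2.01 with an interval of 1.30 to 3.11. It passed the thresholds of the study, a fold of 2 together with a p of 0.05 before adjustment, as 0.586% of all genes did in that direction, but not the adjustment over all genes (adjusted p = 0.792 from limma). The exact two-sided permutation p was 0.1, the smallest that 20 assignments of 3 against 3 arrays allow, and 0.794% of all genes had a smaller unadjusted p. The fold lay so close to the threshold that leaving out 1 array could end the call, since the difference fell to 0.98 when *Slug*+/+ replicate 1 was left out and to 0.96 when it was *Slug*+/+ replicate 2. Omitting *Slug*-/- replicate 1 gave 0.71. Quantile normalization (0.98) and array weights (0.99) also ended it.

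Of the markers of committed myogenic cells, *Myog* was higher past the thresholds, as *Cdkn1c* was. Among the *Slug*-/- arrays, replicate 1 was the highest for both genes (8.43 for *Myog* and 5.95 for *Cdkn1c*). Replicate 2 was the lowest of them for both (7.03 and 5.05). Replicate 3 was 8.27 for *Myog*, near its highest array, and 5.06 for *Cdkn1c*, near its lowest *Slug*-/- array. Marker levels summed over 9 genes on the linear scale were 325, 297 and 340 in *Slug*+/+ and 834, 370 and 642 in *Slug*-/- SCs, so the lowest *Slug*-/- array, replicate 2, was above the highest *Slug*+/+ array, and replicate 1 was the highest, as it was for *Cdkn1c*. The full separation rested on *Myog*. The sums of the other 8 genes were 260, 261 and 289 in *Slug*+/+ and 489, 240 and 334 in *Slug*-/- SCs. Replicates 1 and 3 of *Slug*-/- SCs thus stayed above every *Slug*+/+ array, and replicate 2 lay below them. Of the 9, *Myog* was higher past the thresholds and *Myl4* had an unadjusted p under 0.05 from limma. The median difference was 0.27, and 6 differences were positive, among them *Mymk* (0.64), *Acta1* (0.52) and *Myod1* (0.27). *Mymx* (-0.16), *Tnnt2* (-0.02) and *Ckm* (-0.21) had negative differences. *Myh3*, the embryonic myosin heavy chain, lay under background in both genotypes (1.78 and 1.82 on average). The sum over 10 adult fibre genes was 226 to 294 in *Slug*+/+ and 337 to 416 in *Slug*-/- SCs. It rested on *Actn3*, a fast-fibre actinin (difference 0.81), and without it the sums were 106 to 117 and 91.4 to 112. Of the 10, 0 passed the thresholds, and 4 had negative differences, among them *Tnnt3* (-0.35) and *Mb* (-0.40). Of 13 measured proliferation genes, *Mki67* (difference 2.47), *Cdk1* and *Top2a* were higher past the thresholds. Over all genes 0.586% were, and the list was written with earlier results of these data known. *Top2a* lay under background on all 3 *Slug*+/+ arrays, was at least 1.69-fold higher with these raised to background, and is then under a fold of 2. The sums over the 13 were 429, 377 and 428 in *Slug*+/+ and 655, 393 and 533 in *Slug*-/- SCs, overlapping through *Slug*-/- replicate 2. *Pcna*, the brightest of the 13 (7.81 and 7.83 on average), weighed most in them. SC markers overlapped too, at 4382 to 5564 and 5052 to 5425, with 0 of 12 past the thresholds. The part of committed, fibre or dividing cells in the difference of *Cdkn1c* was not tested.

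*Cdkn1a* encodes p21, the inhibitor that p53 is known to induce. It was 8.01, 8.82 and 8.62 in *Slug*+/+ and 9.12, 8.59 and 8.08 in *Slug*-/- SCs, at least 4.78 above background on each array. Its highest array was *Slug*-/- and its lowest *Slug*+/+, while the other 2 *Slug*-/- arrays lay below the other 2 *Slug*+/+ arrays. The difference was 0.11 (SE 0.32, 95% interval -0.63 to 0.86, adjusted p = 0.984 from limma, exact two-sided permutation p = 0.8), and omitting replicate 1 of *Slug*+/+ or of *Slug*-/- SCs turned it to -0.12 or -0.15.

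*Cdkn1b* encodes p27, an inhibitor of quiescent cells that is degraded after tagging by ligases such as that of Skp2. It was 4.32, 4.40 and 5.97 in *Slug*+/+ and 4.60, 6.28 and 5.24 in *Slug*-/- SCs. Both genotypes held low and high arrays, over a range of 1.95. Its pooled SD of 0.891 was larger than that of 97.1% of the genes above background. The difference of 0.47 therefore had an SE of 0.55 and a 95% interval of -0.81 to 1.76 (adjusted p = 0.947 from limma, exact two-sided permutation p = 0.5), which includes no difference as well as folds over 2 in the direction of *Slug*-/- SCs. It ranged from 0.02 without *Slug*-/- replicate 2 to 1.01 without *Slug*+/+ replicate 3.

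**Figure D2:**
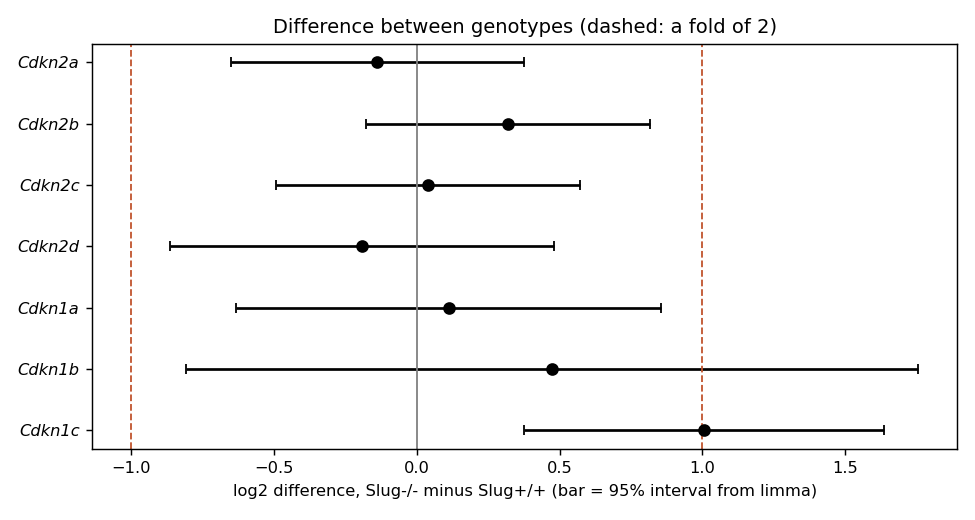
Difference of each inhibitor gene on the log2 scale (*Slug*-/- minus *Slug*+/+; points, estimate from limma; bars, 95% interval; dashed lines, a fold of 2). The interval of *Cdkn1c* (0.38 to 1.64) lies above 0 and the other 6 hold 0, with that of *Cdkn1b* the widest.

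Among the 7 genes, 1 was higher and 0 were lower in *Slug*-/- SCs past the study's thresholds. Over all 22180 genes, 0.897% passed these thresholds, most of them higher, with 0.311% lower, and 5.8% had an unadjusted p under 0.05 whatever their fold. Those were 1286 genes. At an adjusted p of 0.05 limma called 0% of all genes and 0 inhibitor genes, and no adjusted p was below 0.435. Testing each gene with its own variance, unpaired, left 1178 genes under 0.05 before adjustment and 0 after it. The genotypes did not overlap for 1 inhibitor gene, against 10.6% of all genes in either direction and 5.24% with *Slug*-/- SCs higher. The difference was positive for 5 inhibitor genes and negative for 2, with a median of -0.05 over the 4 INK4 genes, 0.47 over the 3 CIP/KIP genes and -0.01 over all genes. The CIP/KIP median is the value of *Cdkn1b* alone, whose 95% interval was -0.81 to 1.76, and *Cdkn1a* gave 0.11. For 5 of the 7, all but *Cdkn1b* and *Cdkn1c*, the 95% interval lay within a fold of 2 in both directions. Among these, *Cdkn2a* and *Cdkn2c* lay at most 0.95 and 0.99 above background. The probe set of *Cdkn2a* could not be assigned to p16Ink4a, so its interval sets no limit on a change of that transcript.

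**Figure D3:**
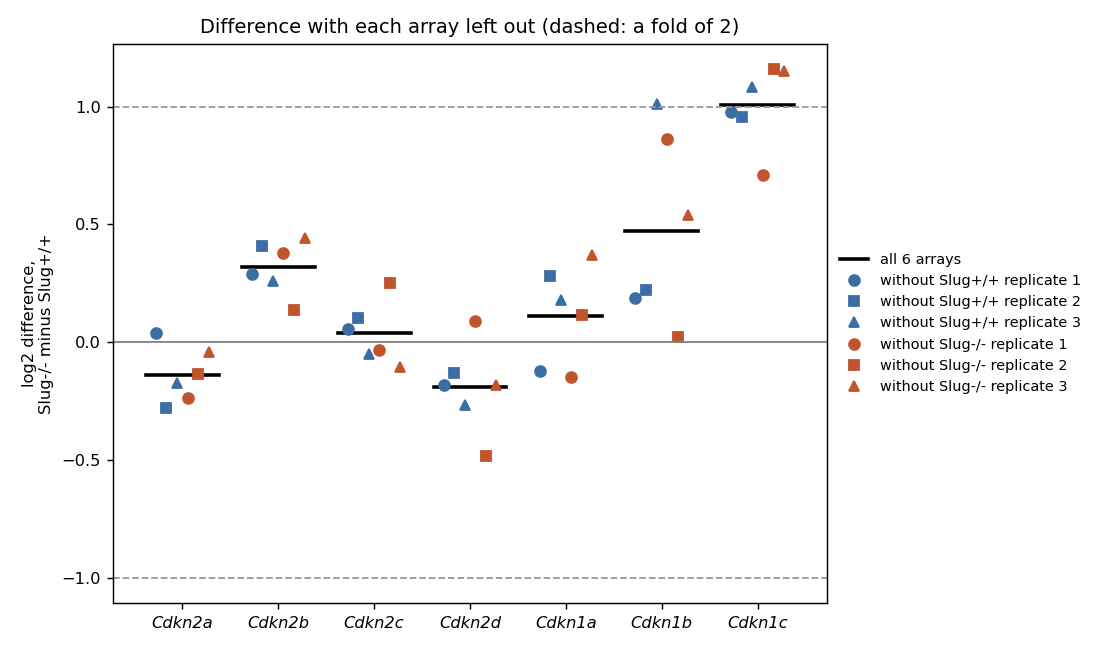
Difference of each inhibitor gene on the log2 scale (*Slug*-/- minus *Slug*+/+) with all 6 arrays (black lines) and with each array left out (blue, a *Slug*+/+ array; orange, a *Slug*-/- array; dashed lines, a fold of 2). *Cdkn1c* stays between 0.71 and 1.16 and *Cdkn2b* between 0.14 and 0.44, whereas *Cdkn2a*, *Cdkn2c*, *Cdkn2d* and *Cdkn1a* fall on both sides of 0.

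Of the cyclins and kinases that the inhibitors bind, *Cdk6* and *Cdk1* were higher in *Slug*-/- SCs past the thresholds and the others were not. Of 104 measured pathway genes in 11 lists, 5 were higher and 1 was lower past the same thresholds, which is 5.77%, and 65.4% had a positive difference, with a median of 0.12. Over all genes 48.4% had a positive difference, and over the genes above background 54.0%, with a median of 0.03. The lists were written with earlier results of these data known, so these shares do not test the pathway. The 1 lower gene was *Snai2*, which *Slug*-/- animals lack. *Cdk6*, a kinase blocked by INK4 proteins, was 1.92, 1.70 and 2.05 in *Slug*+/+ and 4.21, 2.22 and 4.07 in *Slug*-/- SCs. All *Slug*+/+ arrays and *Slug*-/- replicate 2 lay under background, so its difference of 1.61 (SE 0.50, adjusted p = 0.823 from limma) has no fold that can be stated, and the call was lost when values under background were raised to it. Of the other INK4 targets, *Ccnd1*, which encodes cyclin D1, was higher on every *Slug*-/- array without passing the thresholds (6.23, 5.60 and 6.24 against 6.46, 6.47 and 7.87, difference 0.91, adjusted p = 0.868 from limma). *Cdk4* gave a difference of 0.42, and the median of the 5 INK4 targets was 0.42.

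Of the 5 measured CIP/KIP targets, 1 was higher past the thresholds, all had a positive difference, and the median was 0.56. The cyclin genes *Ccne2* and *Ccnb1* were listed but not measured. *Cdk1*, the kinase of mitotic entry, was 2.40, 2.89 and 2.26 in *Slug*+/+ SCs, under background on each array, and 5.69, 4.17 and 4.87 in *Slug*-/- SCs. The genotypes were far apart, with a difference of 2.39 (SE 0.38, adjusted p = 0.493 from limma), and *Slug*-/- SCs were at least 3.35-fold higher when *Slug*+/+ values were raised to background. *Ccna2*, which encodes cyclin A2, gave 0.67, with 5 of 6 arrays under background, and *Ccnb2*, which encodes cyclin B2, gave 0.56. Among 13 pocket proteins and E2F factors, which lie downstream, 10 differences were positive and 0 passed the thresholds (median 0.44). *E2f2*, an activating E2F, was 3.51, 3.57 and 3.01 in *Slug*+/+ and 3.89, 4.37 and 4.68 in *Slug*-/- SCs (difference 0.95, SE 0.26, adjusted p = 0.792 from limma), just under a fold of 2. *E2f8*, a repressing E2F, gave 0.44 with no more than background signal on all 6 arrays.

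Parts of the ubiquitin ligases that degrade CIP/KIP proteins included 2 genes higher past the thresholds of 12 measured, with 10 positive and a median of 0.30. *Cul4b*, a scaffold of such a ligase, was 4.21, 3.58 and 4.61 in *Slug*+/+ and 4.51, 5.52 and 6.24 in *Slug*-/- SCs, a difference of 1.29 (SE 0.45, adjusted p = 0.823 from limma). Its genotypes overlapped, and the call was lost on omitting replicate 2 of *Slug*+/+ (1.02), or replicate 2 (1.25) or replicate 3 (0.88) of *Slug*-/- SCs. *Cdc20*, an activator of the anaphase-promoting complex, was 2.85, 3.06 and 3.32 against 4.04, 3.40 and 4.97 (difference 1.06, SE 0.38, adjusted p = 0.823 from limma), with 2 *Slug*+/+ arrays under background, and it lost the call on omitting replicate 1 (0.95) or replicate 2 (1.05) of *Slug*+/+, or replicate 3 of *Slug*-/- SCs (0.64). *Dtl*, the substrate receptor of the Cul4 ligase, gave 0.54 and *Cul4a* 0.36, and neither passed the thresholds. *Skp2*, the receptor for p27, gave 0.72 (adjusted p = 0.910 from limma).

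**Figure D4:**
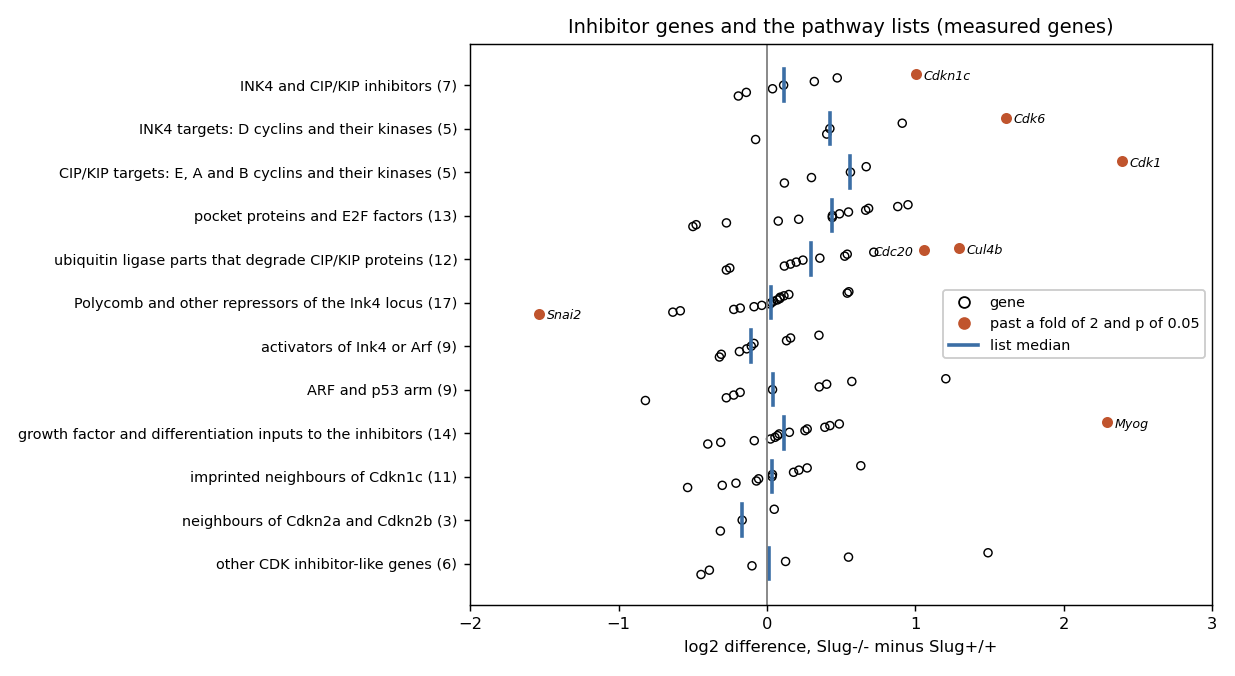
Difference on the log2 scale (*Slug*-/- minus *Slug*+/+) of each measured gene of the inhibitor family and of the 11 pathway lists (open points; filled points, past both thresholds; blue bars, list medians; number of measured genes in brackets). The medians run from -0.17 for the *Cdkn2a* and *Cdkn2b* neighbours to 0.56 for the CIP/KIP targets.

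Of the regulators of the INK4 locus, only *Snai2*, the gene that *Slug*-/- animals lack, passed the thresholds. Of 17 measured Polycomb and other repressors, 1 was lower and 0 were higher, and the median was 0.03. *Phc1*, a Polycomb repressive complex subunit, was 5.57, 5.75 and 5.49 in *Slug*+/+ and 4.62, 5.26 and 5.02 in *Slug*-/- SCs, lower on every *Slug*-/- array by less than a fold of 2 (difference -0.63, SE 0.21, adjusted p = 0.823 from limma). *Ring1*, a ligase of the same complex, gave 0.54. *Bmi1* and *Ezh2*, Polycomb genes known to silence *Cdkn2a*, gave 0.09 each. Of 9 activators of *Ink4* or *Arf*, 0 passed the thresholds, 3 differences were positive and the median was -0.11, with *Jund* at -0.31 and *Foxo3* at -0.32. The value of *Jund* depended on the probe set, since the mean of its probe sets gave -0.76 (unadjusted p = 0.0042 from limma), still under a fold of 2.

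Downstream of p19Arf, 0 of 9 measured genes of the p53 arm passed the thresholds (median 0.04). The p53 gene itself, *Trp53*, and its targets *Bax* and *Gadd45a* were listed but not measured. *Sesn2*, a stress gene induced by p53, was 3.69, 4.43 and 3.14 in *Slug*+/+ and 6.08, 4.07 and 4.72 in *Slug*-/- SCs (difference 1.21, SE 0.53, adjusted p = 0.868 from limma), overlapping through *Slug*-/- replicate 2. It passed the thresholds in 6 of 18 other settings. *Btg2*, an antiproliferative gene also induced by p53, was 10.52, 10.56 and 10.60 against 8.76, 10.30 and 10.17 (difference -0.82, SE 0.39, adjusted p = 0.879 from limma), lower on every *Slug*-/- array and farthest in replicate 1. Of the 6 measured genes of proteins that resemble or work beside CDK inhibitors, 0 passed. *Wee1*, the kinase that blocks CDK1 by phosphorylation, gave 1.49 with an SE of 0.66 and overlapping genotypes and passed in 4 of 18 other settings, and *Cables1*, whose product binds CDKs, gave 0.55.

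*Cdkn1c* lies in an imprinted cluster on chromosome 7, and 0 of its measured neighbours passed the thresholds. Of these 11 genes, 6 had a positive difference and the median was 0.03. Only 5 had a mean above background in *Slug*+/+ SCs and 6 in *Slug*-/- SCs, and a change in a gene under background could be missed. *H19* was listed but not measured. *Igf2*, a growth factor expressed from the paternal allele, was lower on every *Slug*-/- array (5.45, 5.03 and 5.40 against 4.86, 4.46 and 4.96, difference -0.53, SE 0.21, adjusted p = 0.839 from limma). *Nap1l4*, a histone chaperone gene, was higher on every *Slug*-/- array (6.75, 6.03 and 6.88 against 7.31, 7.18 and 7.06, difference 0.63, SE 0.25, adjusted p = 0.846 from limma). The other 9 lay between -0.30 and 0.27, and *Kcnq1ot1*, the non-coding RNA that silences *Cdkn1c* on the paternal allele, gave -0.21 (adjusted p = 0.947 from limma).

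Of 14 measured genes for signals and factors that are known to act on the inhibitors, *Myog* was higher past the thresholds and 11 differences were positive (median 0.12). *Myog*, which encodes the differentiation factor myogenin, was 6.03, 5.15 and 5.68 in *Slug*+/+ and 8.43, 7.03 and 8.27 in *Slug*-/- SCs, without overlap (difference 2.29, SE 0.40, adjusted p = 0.619 from limma). *Hes1*, a Notch target that represses *Cdkn1c* and *Cdkn1b* in other tissues, gave -0.40, *Tgfbr2*, a TGF-β receptor gene, gave 0.39, and *Myod1*, which is known to raise *Cdkn1a* and *Cdkn1c* in muscle cells, gave 0.27 with overlapping genotypes.

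Sums over genes of other cell types overlapped between the genotypes for blood cells (154 to 191 and 106 to 178), endothelial cells (218 to 325 and 222 to 307), fibro-adipogenic progenitors (3186 to 4136 and 2969 to 4191) and mural cells (746 to 931 and 898 to 1323). The progenitor sum rested on *Dpt* (10.93 and 10.85 on average) and *Dcn* (10.31 and 10.21), and the defining gene *Pdgfra* lay under background (2.90 and 2.78). *Lum*, a collagen-binding gene of these progenitors, was the only one of the 9 past the thresholds (difference 1.05, unadjusted p = 0.048 from limma). It was 3.64, 2.96 and 2.80 in *Slug*+/+ and 4.43, 4.92 and 3.20 in *Slug*-/- SCs. Its genotypes overlapped, and *Slug*+/+ replicates 2 and 3 lay under background. *Cd68*, a macrophage gene, was lower on every *Slug*-/- array (6.46 and 5.50 on average, difference -0.96). *Tagln*, of the mural list, was higher on every *Slug*-/- array (7.74 and 8.61 on average, difference 0.87), while 2 of the 8 mural genes had negative differences.

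Genes with the pattern most like that of each inhibitor gene were sought among 11911 genes with a mean above background, by the root mean square difference of values centred on each gene's mean over 6 arrays. For *Cdkn1c* these were *Tubgcp6*, a component of the γ-tubulin complex (0.115, difference between genotypes 0.94), and *Gphn*, which encodes gephyrin (0.124, difference 0.79). The nearest were *Lrrc4b* for *Cdkn2a* (0.0584), *Noto* for *Cdkn2b* (0.0811), *Col4a5* for *Cdkn2c* (0.0767) and *Mmp17* for *Cdkn2d* (0.107). They were *Irf9* for *Cdkn1a* (0.0895) and *Fam136a* for *Cdkn1b* (0.116). With 6 arrays and so many candidates, these are descriptions of shape only, and no inhibitor gene was the nearest of another.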

How the data were processed

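RNA of 6 sorted SC samples was labelled with biotin by the Affymetrix whole-transcript protocol. The authors processed the arrays with Gene Expression Console and deposited log2 expression values, 1 for each of 41345 probe sets and each array, with nothing pooled and with the algorithm not given in the sources used here. Genotypes came from the labels of the samples, and 0 sample columns stayed unused. Of the probe sets, 23521 carried exactly 1 symbol in the platform annotation, 1820 carried several and 16004 none. The brightest was taken for each of 1082 genes with more than 1, giving 22180 genes, of which 21994 matched the reference gene table by Entrez ID. Dim probe sets were kept. The array number limits precision.

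From these values differences between genotypes were fitted by lmFit and eBayes of limma 3.58.1 under R 4.3.3 (3.57 prior degrees of freedom) and Benjamini-Hochberg adjusted over 22180 genes. A gene passed at a fold over 2 and p under 0.05 before adjustment, after the study's methods, which name another program. The steps were tested on simulated data. The inhibitor genes and gene lists were chosen with earlier results of these data known, and 104 of 114 listed pathway genes had a single-symbol probe set; the others were not used here. Beyond the inhibitor genes and *Snai2*, the text names from each pathway list the genes past both thresholds and the 2 with the next smallest p, the 2 genes most like each inhibitor gene (only the nearest is printed for 6 of them), *Pax7* and genes of the sort markers. Some listed genes that were not measured are named as well. *Skp2*, *Bmi1*, *Ezh2*, *Kcnq1ot1*, *Myod1*, *Mymk*, *Mymx*, *Acta1*, *Tnnt2*, *Ckm*, *Myh3*, *Myl4*, *Actn3*, *Tnnt3*, *Mb*, *Mki67*, *Top2a*, *Pcna*, *Dmrta1*, *Dpt*, *Dcn*, *Pdgfra*, *Lum*, *Cd68* and *Tagln* were added after their values were seen. Alternatives were an intensity trend, a robust prior, a plain unpaired test, every probe set, probe set means, filters at the background percentile or the median signal, quantile normalization, median subtraction, a replicate block, array weights, values raised to background, a fold of 1.5, leaving out each array, and CANNTG in place of CAGGTG.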

Additional observations from a re-analysis of the deposited data

How the results depend on the processing

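Over 18 other settings, 6 of them leaving out an array, *Cdkn1c* stayed higher in *Slug*-/- SCs (0.71 to 1.16) with an unadjusted p of at most 0.0308 from limma or the plain test, and it passed both thresholds in 13. The number of inhibitor genes higher past both thresholds was 1, and it was 0 with quantile normalization (*Cdkn1c* at 0.98) and with array weights (0.99). It was 0 to 1 over the fits without 1 array. The numbers lower and at an adjusted p of 0.05 were 0 in every setting. *Cdkn2b* (0.14 to 0.44) and *Cdkn1b* (0.02 to 1.01) kept their sign without a call. The sign of the other 4 turned only when an array was left out. *Cdkn2a* was 0.038 without *Slug*+/+ replicate 1 (range -0.28 to 0.038). Leaving out *Slug*+/+ replicate 3 gave -0.05 for *Cdkn2c*, and leaving out *Slug*-/- replicate 1 or 3 gave -0.03 or -0.10 (range -0.10 to 0.25). *Cdkn2d* was 0.088 without *Slug*-/- replicate 1 (range -0.48 to 0.088). *Cdkn1a* was -0.12 and -0.15 without *Slug*+/+ or *Slug*-/- replicate 1 (range -0.15 to 0.37). The cause was not tested.

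Of the pathway genes, 5 were higher past both thresholds, 2 with the plain test (which lost *Cdk6*, *Cul4b* and *Cdc20*), 3 with values raised to background (which lost *Cdk6* and *Cdc20*) 3 to 8 over the fits without 1 array, 7 with an intensity trend (adding *Sesn2* and *Wee1*), and 6 with either signal filter (adding the same and leaving out *Cdk6*) or with median subtraction (adding *Sesn2*). Those lower were 1 to 2. Without single arrays, *Ccnd1* (1.15 and 1.14 without *Slug*-/- replicate 1 or 2), *E2f2* (1.02, 1.05 and 1.16 without *Slug*+/+ replicate 1 or 2 or *Slug*-/- replicate 1), *Sesn2* (1.54 and 1.65 without *Slug*+/+ or *Slug*-/- replicate 2), *Wee1* (2.28 without *Slug*+/+ replicate 3) and *Btg2* (-1.10 without *Slug*-/- replicate 2) also passed. Over all genes, the 130 higher and 69 lower became 66 and 33 with the plain test and 267 and 124 without *Slug*+/+ replicate 3.

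Over genes, deviations from the genotype mean correlated at r = 0.03, 0.02 and 0.13 for arrays of the same replicate number. Arrays of unlike number gave r of -0.08 to 0.05. With 3 arrays per genotype these values cannot tell whether the samples were paired. The fit with the replicate block gave 152 higher and 73 lower genes, and 1 inhibitor gene, *Cdkn1c* (1.01). Signal over background limits the dim genes. *Cdkn2a* and *Cdkn2c* lay 0.33 to 0.95 and 0.04 to 0.99 above background.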
